A study of Mus musculus with 26 samples.

Results

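E-cadherin-negative carcinoma lines were set against E-cadherin-positive carcinoma lines in a collection of mouse skin cell lines, with 11 lines in each group. The 22 lines are every line of the 26 whose cell type label is squamous cell skin carcinoma, with or without spindle morphology. They were chosen by the transcript level of Cdh1, the gene of E-cadherin: lines under 5 on the log2 scale were taken as negative and lines at 8 or more as positive. No carcinoma line lay between these thresholds. The negative lines were 2945CA, A5, CarB, CarC, D3, D3DP, H11, MSC11B, MSC12, MSC7A and MSN2. The positive lines were B9, B9Smad, B9ras, B9rassmad, E4, MSCP1, MSCP5, MSCb1, PDV, PDVC57 and SN161. Spindle morphology, an elongated fibroblast-like cell shape, is part of the cell type label of 7 negative lines and of 1 positive line, B9Smad, whose separate spindle flag says otherwise. That flag is not stated for the negative line 2945CA and the positive line MSCb1. The tumour arose in a Spretus/CBA cross for the negative lines MSC11B, MSC12 and MSC7A and for the positive lines MSCb1, MSCP1 and MSCP5, and in a Spretus/NIH cross for the positive line SN161. No cross is stated for the other 8 negative and 7 positive lines. All lines were grown in serum and harvested in log phase for Trizol extraction, and none carries a stated treatment. The labels do not say whether a line is a clone, or what was done to make lines with related names such as B9ras and B9Smad.

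Each line was measured on 1 Affymetrix M430 2.0 array. The deposited log2 values were made with RMA, which subtracts background, gives all arrays the same distribution and summarises the probes of a probe set. Values ran between 2.28 and 14.92 and the array medians between 5.04 and 5.15, so values of 3 to 5 lie at the dim end, where differences are compressed. No label speaks of separate cultures of a line. The p-values below therefore measure the spread between lines. The negative lines carry 9 name families and the positive lines 6, and lines of a family may not be independent. These are bulk cultures, in which fewer cells of a kind and less RNA per cell cannot be told apart.

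E-cadherin is the calcium-dependent adhesion receptor of epithelial adherens junctions. It anchors to actin through beta-catenin and alpha-catenin, and it also binds p120-catenin. Its loss is a hallmark of epithelial-mesenchymal transition (EMT), the change of epithelial cells to a motile, fibroblast-like state that repressors of the ZEB, SNAIL and TWIST families can drive. In mouse skin, squamous carcinomas keep epithelial junctions and keratins to varying degrees, whereas spindle carcinomas are the form known for having lost them.

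The Cdh1 values that chose the groups are a description and were not tested. Cdh1 was between 3.02 and 3.78 in the negative lines, with a mean of 3.40 ± 0.25, and between 8.49 and 11.78 in the positive lines, with a mean of 10.73 ± 1.09 (SD, n = 11 each). The line nearest the lower threshold was D3DP at 3.78, and the line nearest the upper threshold was B9Smad at 8.49, followed by B9rassmad at 9.13. The 3 keratinocyte lines and the papilloma line, which entered no test, lay between 10.46 and 11.60.

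Of 12520 other genes tested, 2540 (20.3%) differed between negative and positive lines at a limma adjusted p under 0.05, the threshold for a call used throughout. In the negative lines 1443 genes were higher (11.5% of those tested) and 1097 were lower (8.76%). The median log2 fold change, negative over positive, was 0.06 over all tested genes. Calls of 2-fold or more numbered 442 higher and 511 lower, and at 16-fold or more there were 10 higher and 42 lower. An unadjusted p under 0.05 was reached by 4308 genes. With name families as a random block limma called 1802 genes (14.4%), and with each family averaged first it called 858 (6.85%). Between 1906 and 3400 genes were called when 1 line was left out, without MSCP1 and without MSCb1 at the ends of that range. A core of 791 genes was called in all of these fits, 337 of them higher and 454 lower in negative lines.

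**Figure D1:**
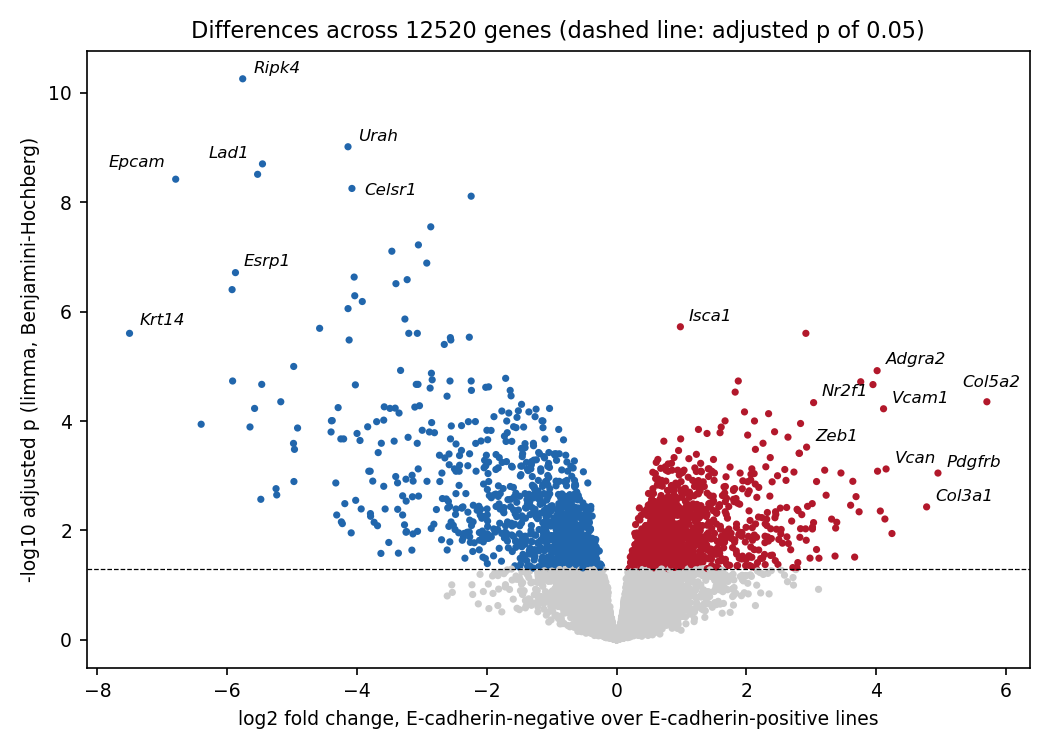
Volcano plot of 12520 genes, with the log2 fold change of E-cadherin-negative over E-cadherin-positive lines on the x axis and -log10 of the limma adjusted p on the y axis. Red points (1443) were called higher and blue points (1097) called lower in negative lines; the lowest adjusted p values belong to lower genes such as Ripk4 and Urah.

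The 10 largest falls were led by epithelial surface, keratin and junction genes. Krt14, a keratin of basal epidermis, was between 4.07 and 5.44 in negative lines (median 4.32) and between 7.88 and 14.51 in positive lines (median 13.75), a log2 fold change of -7.50 (SE 0.82, limma adjusted p = 2.49e-06). Epcam, an epithelial adhesion molecule, was between 3.86 and 4.62 in negative lines and between 7.34 and 13.12 in positive lines, a fold change of -6.79 (SE 0.48, limma adjusted p = 3.79e-09). The groups did not overlap for either gene, and the positive lines SN161 for Krt14 and MSCb1 for Epcam came nearest to the negative ones. The other 8 were Krt17 (-6.40), Mpzl2 (-5.92), Ppbp (-5.92), Esrp1 (-5.87), Ripk4 (-5.76), Igfbp3 (-5.65), Dsp (-5.58) and Cdcp1 (-5.53). Among them Ppbp encodes a platelet chemokine and Igfbp3 a carrier of insulin-like growth factors. Igfbp3 was at 11.52 in the negative line 2945CA, inside the positive range of 8.02 to 13.48, and at 7.80 or less in the other negative lines.

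The 10 largest rises were mostly genes of extracellular matrix and of mesenchymal surface receptors. Col5a2, a fibrillar collagen chain, was between 8.46 and 13.59 in negative lines (median 11.65) and between 4.33 and 11.55 in positive lines (median 4.74), a log2 fold change of 5.71 (SE 0.77, limma adjusted p = 4.44e-05). MSCP5 alone gave the overlap: it was at 11.55, and the next positive line, SN161, was at 6.14. The others were Pdgfrb (4.95), Col3a1 (4.78), Efemp1 (4.24), Vcan (4.15), Pcolce (4.14), Vcam1 (4.11), Ogn (4.06), Prrx1 (4.02) and Adgra2 (4.02). Pdgfrb is a receptor for platelet-derived growth factor, Vcan a matrix proteoglycan, Vcam1 a cell adhesion molecule and Prrx1 a homeobox factor of mesenchyme. Pdgfrb was between 8.49 and 11.52 in negative lines, and in positive lines it was at 11.48 in MSCP5, 10.15 in MSCb1 and 5.76 or less in the rest.

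Complete separation of the groups was rare and ran mostly one way. In 52 genes (0.415% of those tested) the ranges did not overlap. Of these, 46 (0.367%) were lower and 6 (0.0479%) higher in every negative line than in any positive line. The gap between the groups was over 1 log2 unit for 11 lower genes and over 2 for 5 of them, while no higher gene had a gap over 1. Ripk4, a kinase needed for epidermal differentiation, had the widest gap at 3.58: it was between 3.07 and 3.73 in negative lines and between 7.31 and 11.01 in positive lines (log2 fold change -5.76, SE 0.31, limma adjusted p = 5.53e-11). Next came Epcam (gap 2.73), Krt14 (2.44), Urah (2.40), Celsr1 (2.27) and Cdcp1 (1.81). Urah encodes an enzyme of uric acid breakdown, Celsr1 an atypical cadherin of planar cell polarity and Cdcp1 a transmembrane substrate of Src-family kinases. Celsr1 was between 3.30 and 4.03 in negative lines and between 6.30 and 9.63 in positive lines. Without MSCb1 the number of separated genes was 139, with 109 lower and 30 higher.

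The 6 genes that were higher in every negative line had smaller gaps. They were Isca1, an assembly factor for mitochondrial iron-sulphur clusters, Hyi, Nr2f1, Ubtd1, Spata6 and Plekho1. Isca1 was between 9.55 and 10.12 in negative lines and between 8.37 and 9.17 in positive lines, a log2 fold change of 0.98 (SE 0.10, limma adjusted p = 1.89e-06). Nr2f1, an orphan nuclear receptor, had the largest difference of the 6 at 3.04 (SE 0.41), with 9.46 to 12.35 in negative lines and 5.16 to 9.30 in positive lines. The highest positive line for Nr2f1 was B9rassmad.

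**Figure D2:**
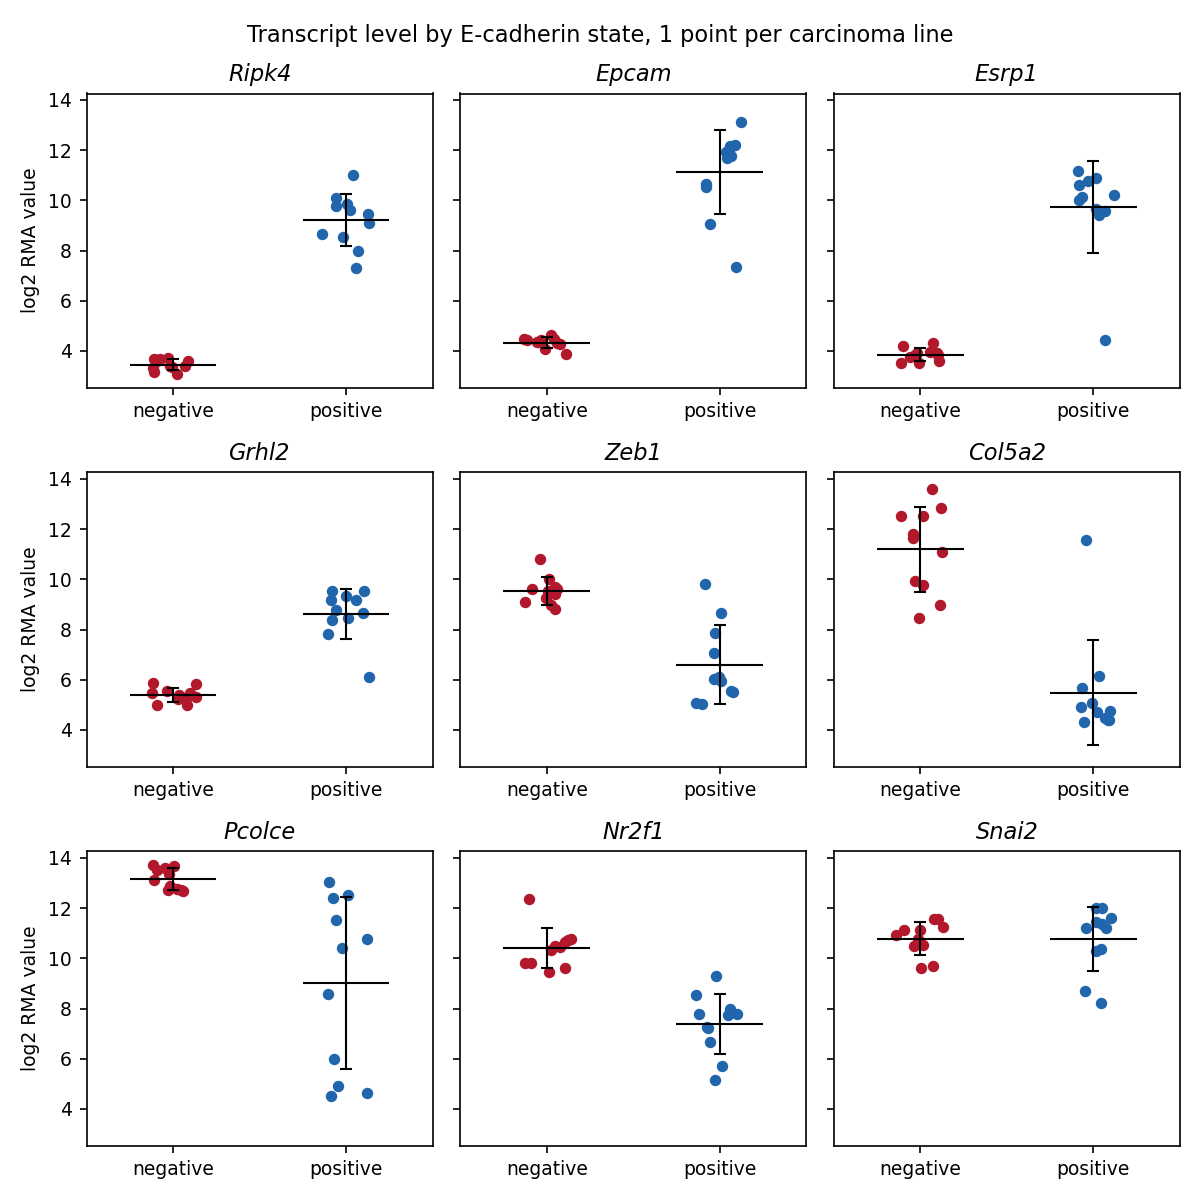
Transcript levels of 9 genes as log2 RMA values, with 1 point per carcinoma line, a horizontal bar for the group mean and an error bar for 1 SD (n = 11 each). Ripk4, Epcam, Esrp1 and Grhl2 show no overlap; Zeb1, Col5a2 and Pcolce rose in negative lines with single positive lines among the negative ones; Snai2 shows overlapping groups.

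Because ZEB and SNAIL repressors bind the E-box CAGGTG, the promoters of the genes that fell were searched for it. The motif was searched as CAGGTG and as its reverse complement CACCTG, which covers both strands, in the RefSeq windows (GRCm38.p6) from 250 bases before to 50 after each annotated start. At least 1 motif lay in a window of 22.6% of the 27025 genes with an entry, and of 21.3% of the 10073 tested genes with one. The share was 31.3% of 863 genes called lower in negative lines and 16.3% of 1136 called higher. Among the 46 fully separated lower genes, 28 had an entry and 14 of these held the motif, with 9 (32.1%) holding it 2 or more times, against 3.16% of tested genes. These shares are descriptions: a match is no evidence of binding, the windows per gene numbered 1.18 on average in that set and 1.28 over tested genes, and base composition was not matched. Shown here are 3 separated genes picked for holding 2 motifs and 3 separated genes without one, Krt14, Lad1 and Jup, since 14 of the 28 had none, with the motif in capitals and each sequence 5′ to 3′ along the gene's own strand. The windows are Epcam at chr17:87635729-87636028 (plus strand, motifs starting at -187 and -19 from the start), Cdcp1 at chr9:123215989-123216288 (minus strand, -205 and 11), Ocln at chr13:100552449-100552748 (minus strand, -213 and -68), Krt14 at chr11:100205981-100206280 (minus strand), Lad1 at chr1:135818348-135818647 (plus strand) and Jup at chr11:100397741-100398040 (minus strand). Each spans the proximal promoter and the first transcribed bases of its gene.
Epcam: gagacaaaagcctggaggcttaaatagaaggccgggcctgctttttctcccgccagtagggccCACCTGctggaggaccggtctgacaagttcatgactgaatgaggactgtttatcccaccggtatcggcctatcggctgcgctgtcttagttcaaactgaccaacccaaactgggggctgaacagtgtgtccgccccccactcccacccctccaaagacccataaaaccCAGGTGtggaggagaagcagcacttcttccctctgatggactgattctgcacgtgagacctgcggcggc
Cdcp1: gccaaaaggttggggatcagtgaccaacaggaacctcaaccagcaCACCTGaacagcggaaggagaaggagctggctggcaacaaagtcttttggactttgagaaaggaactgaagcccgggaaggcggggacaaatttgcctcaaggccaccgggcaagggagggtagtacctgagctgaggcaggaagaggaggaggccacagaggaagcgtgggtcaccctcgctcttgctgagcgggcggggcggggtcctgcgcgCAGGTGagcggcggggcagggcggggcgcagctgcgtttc
Ocln: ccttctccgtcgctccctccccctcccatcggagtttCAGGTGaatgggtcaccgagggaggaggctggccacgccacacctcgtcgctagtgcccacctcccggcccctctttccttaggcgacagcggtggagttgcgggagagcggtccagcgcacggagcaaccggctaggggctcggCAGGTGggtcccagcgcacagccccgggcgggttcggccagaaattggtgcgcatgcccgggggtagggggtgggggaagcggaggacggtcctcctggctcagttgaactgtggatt
Krt14: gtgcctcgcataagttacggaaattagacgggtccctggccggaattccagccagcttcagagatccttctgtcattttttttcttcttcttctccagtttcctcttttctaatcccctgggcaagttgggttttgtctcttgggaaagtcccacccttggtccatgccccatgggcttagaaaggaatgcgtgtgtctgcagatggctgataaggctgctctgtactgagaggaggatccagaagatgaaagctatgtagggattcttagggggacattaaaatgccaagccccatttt
Lad1: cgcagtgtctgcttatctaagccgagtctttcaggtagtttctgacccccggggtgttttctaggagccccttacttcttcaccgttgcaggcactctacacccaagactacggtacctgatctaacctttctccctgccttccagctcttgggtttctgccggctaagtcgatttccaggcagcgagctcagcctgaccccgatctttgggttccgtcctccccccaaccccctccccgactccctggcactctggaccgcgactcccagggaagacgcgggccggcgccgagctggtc
Jup: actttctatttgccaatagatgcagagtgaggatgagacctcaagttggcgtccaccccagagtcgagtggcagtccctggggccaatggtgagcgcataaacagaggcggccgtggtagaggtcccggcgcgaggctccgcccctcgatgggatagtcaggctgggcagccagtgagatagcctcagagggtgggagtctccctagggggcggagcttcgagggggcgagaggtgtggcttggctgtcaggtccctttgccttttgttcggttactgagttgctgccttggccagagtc

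Of 15 adherens junction genes tested other than Cdh1, 5 fell and 2 rose, with a median log2 fold change of -0.32, against 0.06 over all tested genes. Over all tested genes 8.76% fell and 11.5% rose, the shares beside which the counts of this and the following lists stand, and the 2 rises are near that share. All lists were drawn up with earlier results of these data known, so their counts are descriptions and no test of enrichment. Jup, the gene of plakoglobin, a catenin shared with desmosomes, was between 5.54 and 7.03 in negative lines and between 7.32 and 10.06 in positive lines (log2 fold change -2.55, SE 0.28, limma adjusted p = 3.3e-06). Cdh3, the gene of P-cadherin, fell by 2.28 on the log2 scale and overlapped only through the positive line E4 at 6.11. Smaller falls were found for Afdn (-1.35), which encodes the junction scaffold afadin, Cdh13 (-1.31), which encodes T-cadherin, and Ctnnd1 (-0.78), which encodes p120-catenin. The core catenins were not called: the differences were -0.22 for Ctnna1 (adjusted p = 0.475) and -0.17 for Ctnnb1 (adjusted p = 0.333), both from limma. A dimmer Ctnna1 probe set was called lower, at -1.18 (limma adjusted p = 0.00338 over all probe sets), so the Ctnna1 result depends on the probe set.

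Cdh2, the gene of N-cadherin, rose by 3.38 (SE 0.86, limma adjusted p = 0.00906), but not in every line. It was between 3.87 and 11.21 in negative lines (median 8.51) and between 3.21 and 9.53 in positive lines (median 4.29). CarC, at 3.87, was the negative line without it, and the positive lines B9 (9.52) and MSCP5 (9.53) were above the negative median. Cdh11, a mesenchymal cadherin, was at 10.49 to 11.57 in the 3 negative Spretus-cross lines and at 7.99 in CarC, and at 5.67 or less in the other negative lines. In positive lines Cdh11 was at 9.82 in MSCP5 and 7.82 in B9rassmad and at 3.42 or less elsewhere, and its difference of 1.75 was not called (SE 1.20, limma adjusted p = 0.315). Vcl, the gene of the actin linker vinculin, rose by 0.60 (limma adjusted p = 0.038) and was called in 11 of the 22 fits that each left out 1 line. Vcl was not called without MSC7A, for example (adjusted p = 0.0654). Nectin1, Nectin2, Nectin4, Cdh4 and Cdh6 were not called in the full set of lines, and Nectin1 was in 1 of the 22 reduced fits (limma adjusted p = 0.0385 without E4). Another Nectin1 probe set was called lower, at -0.71 (limma adjusted p = 0.0314 over all probe sets).

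Of 10 desmosome genes tested, 9 fell, with a median log2 fold change of -3.23. Dsp, the gene of desmoplakin, was between 3.21 and 9.80 in negative lines (median 6.51) and between 8.08 and 13.31 in positive lines (median 11.85), with MSN2 the highest negative line and B9rassmad the lowest positive one. Perp, a desmosome-associated membrane protein gene, split the negative lines: it was at 3.20 to 3.96 in MSC12, MSC7A and CarC while the other negative lines ran up to 10.49 in MSN2 with 2945CA the lowest of them, against 9.97 to 13.65 in positive lines. Dsg2 (-4.98) and Dsc3 (-4.09), which encode desmosomal cadherins, and the plakophilin gene Pkp1 (-3.58) also fell. Pkp2, another plakophilin gene, differed by 1.13 and was not called (limma adjusted p = 0.115).

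Of 11 hemidesmosome and basement membrane genes, 7 fell, with a median of -2.39. They include Col17a1 (-5.48), Lamb3 (-5.17), Itgb4 (-4.39), Lama3 (-4.24) and Itga6 (-2.42), which encode a transmembrane collagen, laminin-332 chains and the alpha6 and beta4 integrins that attach basal keratinocytes. Col17a1 was at 3.95 or less in all negative lines. In positive lines Col17a1 was at 3.60 in SN161, 3.69 in E4, 3.75 in B9rassmad and 5.70 in MSCb1, and at 10.71 or more in the other 7. Plec, the gene of the linker plectin, differed by -0.29 and was not called (limma adjusted p = 0.349).

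Tight junction and polarity genes fell in 9 of 18 tested, with a median of -1.44. Ocln, the gene of occludin, was between 3.45 and 5.06 in negative lines and between 5.49 and 9.80 in positive lines (log2 fold change -4.02, SE 0.51, limma adjusted p = 2.18e-05); its lowest positive values of 5.49, 5.53 and 5.69 belonged to MSCb1, B9rassmad and B9Smad. Cldn4, a claudin gene, fell by 4.33 on the log2 scale and was at 4.72 in B9Smad, inside the negative range. Lsr (-3.04), of tricellular junctions, and the polarity genes Patj (-2.84) and Pard6b (-2.10) fell too, whereas Cldn12 differed by -0.42 and was not called (limma adjusted p = 0.367) except without MSCb1 (0.0315).

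**Figure D3:**
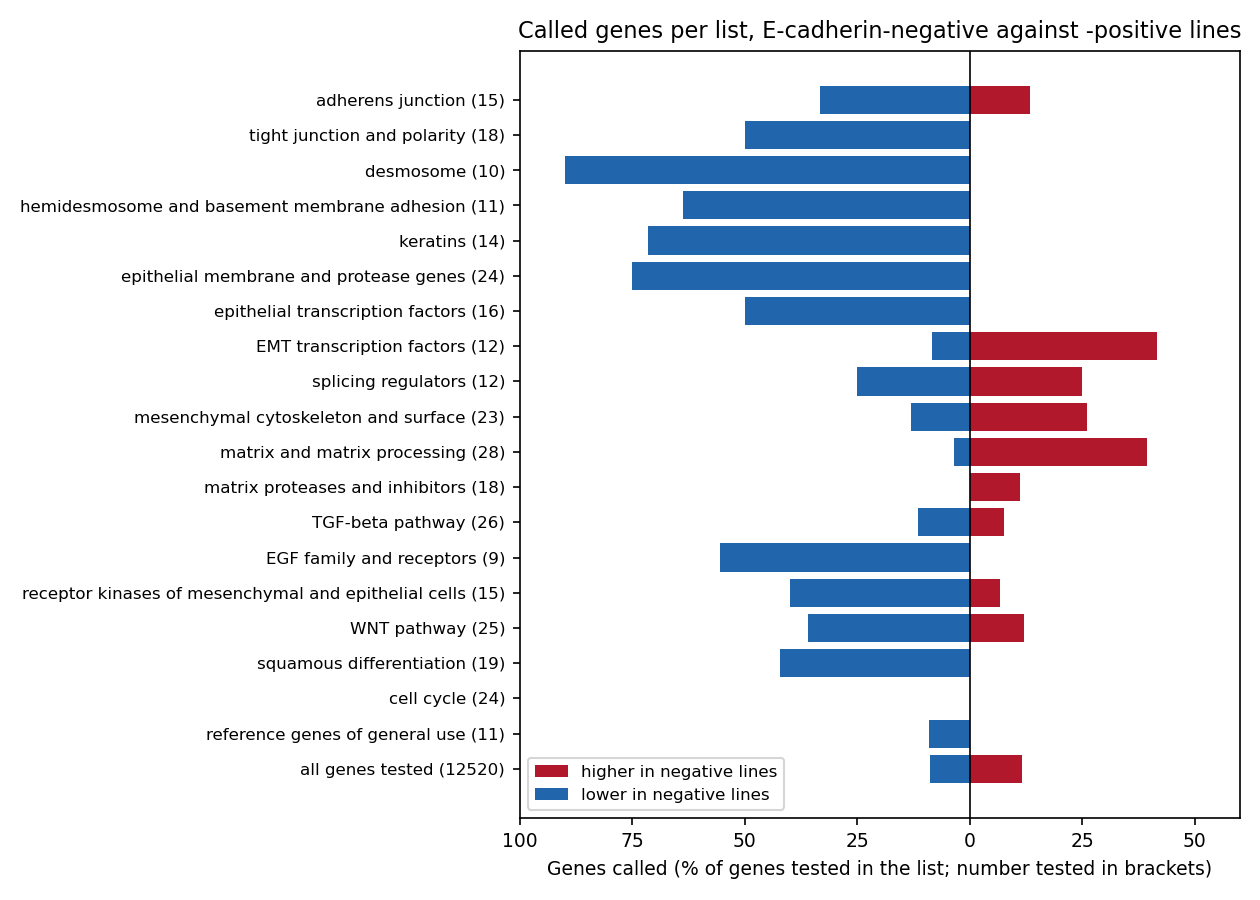
Share of tested genes called higher (red, to the right) or lower (blue, to the left) in E-cadherin-negative lines for each gene list, in percent of the genes tested. Among the lists, desmosome genes fell in 9 of 10, EMT transcription factors rose in 5 of 12 and matrix genes rose in 11 of 28; all 12520 tested genes are shown for comparison.

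Keratins fell in 10 of 14 tested, with a median of -3.44, and 3 further measured keratins were too dim to be tested. Krt14 and Krt17 are described above, and Krt5 (-5.25), the basal partner of Krt14, Krt6a (-4.97) and Krt19 (-4.40) followed. Krt5 was between 4.96 and 5.60 in all negative lines. In positive lines Krt5 was as low in E4 (4.79) and SN161 (5.60), at 6.82 in MSCb1 and 6.95 in B9rassmad, and at 11.58 or more in the other 7. Krt8, a keratin of simple epithelia, behaved differently: it was at 12.02 in 2945CA, 11.46 in MSN2, 11.39 in D3 10.48 in CarC and 9.15 in D3DP among the negative lines, and at 4.99 in MSCP5, 5.52 in B9Smad and 6.59 in B9ras among the positive ones. Its difference of -2.61 was not called (SE 1.30, limma adjusted p = 0.158). Keratin genes are close relatives, and signal shared between their probe sets was not tested.

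Epithelial membrane and protease genes fell in 18 of 24 tested, with a median of -2.19, and 8 of the 24 separated the groups completely, against 8.76% called lower and 0.367% separated in that direction over all tested genes. These genes too were listed with results of these data known, so the shares are descriptions. Besides Epcam and Cdcp1, Lad1, which encodes an anchoring filament protein of basement membranes, was between 4.39 and 5.15 in negative lines and between 6.70 and 11.34 in positive lines (log2 fold change -5.46, SE 0.37, limma adjusted p = 1.99e-09). St14 (-4.12), the gene of the membrane protease matriptase, and Spint1 (-4.14), the gene of its inhibitor HAI-1, fell together. Cd24a, a surface glycoprotein gene, differed by -1.14 (limma adjusted p = 0.0557) and was not called, but was in 3 of the 22 fits with 1 line left out (0.0263 without D3). Squamous differentiation genes fell in 8 of 19 tested, with a median of -1.48, among them Dmkn (-5.24), Krtdap (-3.63), Sbsn (-3.40), Sfn (-3.24) and Sprr1b (-3.14). Sfn encodes 14-3-3 sigma and Sprr1b a cornified envelope precursor. Krtdap was not called without B9ras (limma adjusted p = 0.0509). Another 7 measured genes of the squamous list were too dim to be tested.

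Epithelial transcription factors fell in 8 of 16 tested, with a median of -1.003. Grhl2, a grainyhead factor that maintains epithelial junction genes, was between 4.99 and 5.85 in negative lines and between 6.09 and 9.55 in positive lines (log2 fold change -3.23, SE 0.30, limma adjusted p = 2.6e-07). MSCb1, at 6.09, was the lowest positive line, and the next was B9rassmad at 7.84. Trp63, the master regulator of stratified epithelium, fell by 3.79 on the log2 scale (SE 0.87, limma adjusted p = 0.00492). Trp63 was at 7.78 in CarC, the highest negative line, with a negative median of 4.33, and among positive lines it was at 4.19 in E4, 4.36 in SN161, 5.92 in MSCb1 and 5.96 in B9rassmad. These are the same positive lines that were low in Krt5 and Col17a1. Smaller falls were found for Ovol1 (-1.74), Tfap2c (-1.41), Klf5 (-1.24), Grhl3 (-1.21), Grhl1 (-1.07) and Ovol2 (-0.93). The other 8 were not called, namely Pitx1 (-1.46), Klf4 (-0.89), Foxa1 (-0.65), Zfp750 (-0.54), Barx2 (-0.16), Gata3 (0.16), Tfap2a (0.21) and Cited2 (0.38). A second Pitx1 probe set was called lower, at -1.60 (limma adjusted p = 0.00869 over all probe sets). Klf4 was called in 1 of the 22 reduced fits (limma adjusted p = 0.00893 without MSCb1). Grhl1 was called in 11 of the 22 fits with 1 line left out (adjusted p up to 0.0698, without B9).

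Of 12 EMT transcription factors tested, 5 rose and 1 fell, with a median of 1.07. Zeb1, a zinc finger repressor of Cdh1, was between 8.83 and 10.82 in negative lines (median 9.52) and between 5.05 and 9.81 in positive lines (median 6.01), a log2 fold change of 2.93 (SE 0.48, limma adjusted p = 0.0003). The overlap came from MSCb1, at 9.81; MSCP5 followed at 8.66 and E4 at 7.88. Prrx1 rose by 4.02 (SE 0.73) and was between 6.48 and 11.50 in negative lines and between 3.53 and 8.67 in positive lines. Twist1 rose by 1.46 (SE 0.36, limma adjusted p = 0.00712) and was at 8.31 or more in every negative line, while the positive lines MSCb1 (9.54) and B9rassmad (8.41) reached the same levels. Tcf4, an E-protein gene, rose by 1.44.

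Snai1 rose by 1.61 (SE 0.53, limma adjusted p = 0.0359) but was called in 11 of the 22 fits with 1 line left out (adjusted p up to 0.0632, without MSCP1), and not with name families as a block (limma adjusted p = 0.0715) or averaged (0.256). It was highest in MSC7A (8.80), MSC12 (8.68) and CarC (7.99), and lowest among negative lines in MSN2 (4.63) and D3 (4.94). Positive lines ran between 4.05 in B9 and 7.31 in MSCP5, with MSCb1 at 6.38, SN161 at 5.82 and E4 at 5.02. The groups thus overlapped widely. Snai2 was high on both sides, between 9.62 and 11.55 in negative lines and between 8.22 and 12.01 in positive lines, with a difference of 0.02 (SE 0.41, limma adjusted p = 0.976). Zeb2 differed by 1.10 (limma adjusted p = 0.0561) and Twist2 by 1.05 (0.0588), and neither was called. Without B9rassmad both were (0.0217 and 0.0207), and they were called in 4 and 3 of the 22 fits with 1 line left out. Another Zeb2 probe set was called higher, at 1.59 (limma adjusted p = 0.00729 over all probe sets), and 2 further ones were not. Foxq1 fell by 0.99 on the log2 scale (limma adjusted p = 0.0343) and was called in 12 of the 22 fits with 1 line left out (up to 0.0605, without B9). Foxc2 (-0.10), Sox9 (-0.46) and Tcf3 (0.32) were not called, although Tcf3 was in 2 of the 22 reduced fits (limma adjusted p = 0.0244 without B9rassmad). Both other Tcf3 probe sets were called higher, at 0.53 (limma adjusted p = 0.0289 over all probe sets) and 0.42 (0.0255).

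Splicing regulators fell and rose in equal number, 3 each of 12 tested. Esrp1 and Esrp2 maintain epithelial splice forms. Esrp1 was between 3.51 and 4.31 in negative lines and between 4.45 and 11.15 in positive lines (log2 fold change -5.87, SE 0.53, limma adjusted p = 1.93e-07). MSCb1 was at 4.45, next to the negative lines, and the other 10 positive lines were at 9.40 or more. Esrp2 fell by 3.26 on the log2 scale (SE 0.34), again with MSCb1 lowest among the positive lines at 5.31, and Rbm47, another RNA-binding protein of epithelia, fell by 2.24. Khdrbs3 rose by 3.23 (SE 0.66, limma adjusted p = 0.00227), Rbfox2 by 1.12 and Mbnl2 by 0.65. Khdrbs3 was at 6.38 or more in the negative lines other than 2945CA (3.44) and MSC12 (3.51), and at 5.81 or less in the positive lines. Celf2 (1.32), Mbnl1 (0.41), Qk (0.27), Hnrnpm (0.19), Srsf1 (0.08) and Ptbp1 (-0.14) were not called. In the 22 reduced fits Qk was called in 6 (limma adjusted p = 0.0188 without B9rassmad) and Mbnl1 in 1 (0.0489 without MSCP5). Over all probe sets, another of Mbnl1 was called higher (0.57, limma adjusted p = 0.0171) and another of Qk was called lower (-0.77, limma adjusted p = 0.00219), against the sign of the Qk value above.

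Extracellular matrix genes rose in 11 of 28 tested and 1 fell, with a median of 1.77. Col3a1 was between 5.51 and 13.80 in negative lines (median 11.10) and between 4.41 and 12.25 in positive lines (median 4.61). Its lowest negative line was D3, and MSCP5 was its highest positive line. Pcolce, which enhances procollagen processing, was at 12.69 or more in every negative line, and in positive lines it was between 4.51 and 13.05, highest in B9rassmad. Col6a1 rose by 3.69 and Col1a2 by 3.67, whereas Col4a2, a basement membrane collagen gene, fell by 0.96 on the log2 scale. Col1a2 was called in 15 of the 22 fits with 1 line left out (limma adjusted p up to 0.054, without CarC). Col1a1, the partner chain of Col1a2, was not called (log2 fold change 2.14, limma adjusted p = 0.237): it was at 13.42 in MSC7A, 11.02 in MSC12, 10.72 in CarC and 8.20 in CarB, at 6.06 or less in the other negative lines, and at 12.65 in MSCP5 against 4.08 or less in the other positive lines. Fn1, the gene of fibronectin, was at 10.32 to 14.09 in negative lines, and at 6.51 in B9 and 11.97 to 13.86 in the other positive lines (log2 fold change 0.34, limma adjusted p = 0.751).

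Among 23 mesenchymal cytoskeleton and surface genes, 6 rose and 3 fell, with a median of 1.05. Besides Pdgfrb, the rises included Pdgfra (2.92), S100a4 (2.32), Tpm1 (1.19) and Cald1 (1.03), which encode a growth factor receptor, a calcium-binding protein, a tropomyosin and caldesmon. The falls were in Nt5e (-2.86), Cd44 (-1.11) and Itgav (-0.64), surface molecules often used as mesenchymal markers. Their share is near the 8.76% lower over all tested genes. The other tested Itgav probe sets were not called over all probe sets, at -0.43 (limma adjusted p = 0.288) and 0.07 (0.866). Cd44 was between 9.59 and 12.32 in negative lines and between 11.71 and 13.75 in positive lines. Vim, the gene of vimentin, named after its values were seen, was between 13.74 and 14.41 in negative lines and between 5.14 and 14.14 in positive lines. Its difference of 1.81 was not called (limma adjusted p = 0.0805) but was without B9 (adjusted p = 0.0116). B9, at 5.14, was the positive line with little Vim, and the other 10 were at 11.45 or more. Of 18 matrix protease and inhibitor genes, Mmp2 (2.79) and Mmp11 (1.08) rose, a share near the 11.5% over all tested genes, and 0 of the 18 were called by limma with name families as a block (3 higher and 1 lower at an unadjusted p under 0.05 without it). Mmp2 was at 10.06 or more in CarC, CarB, MSC7A and MSC12, at 7.69 or less in the other negative lines and at 6.84 or less in positive lines, and was called in 10 of the 22 fits with 1 line left out (adjusted p up to 0.0667, without CarB).

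**Figure D4:**
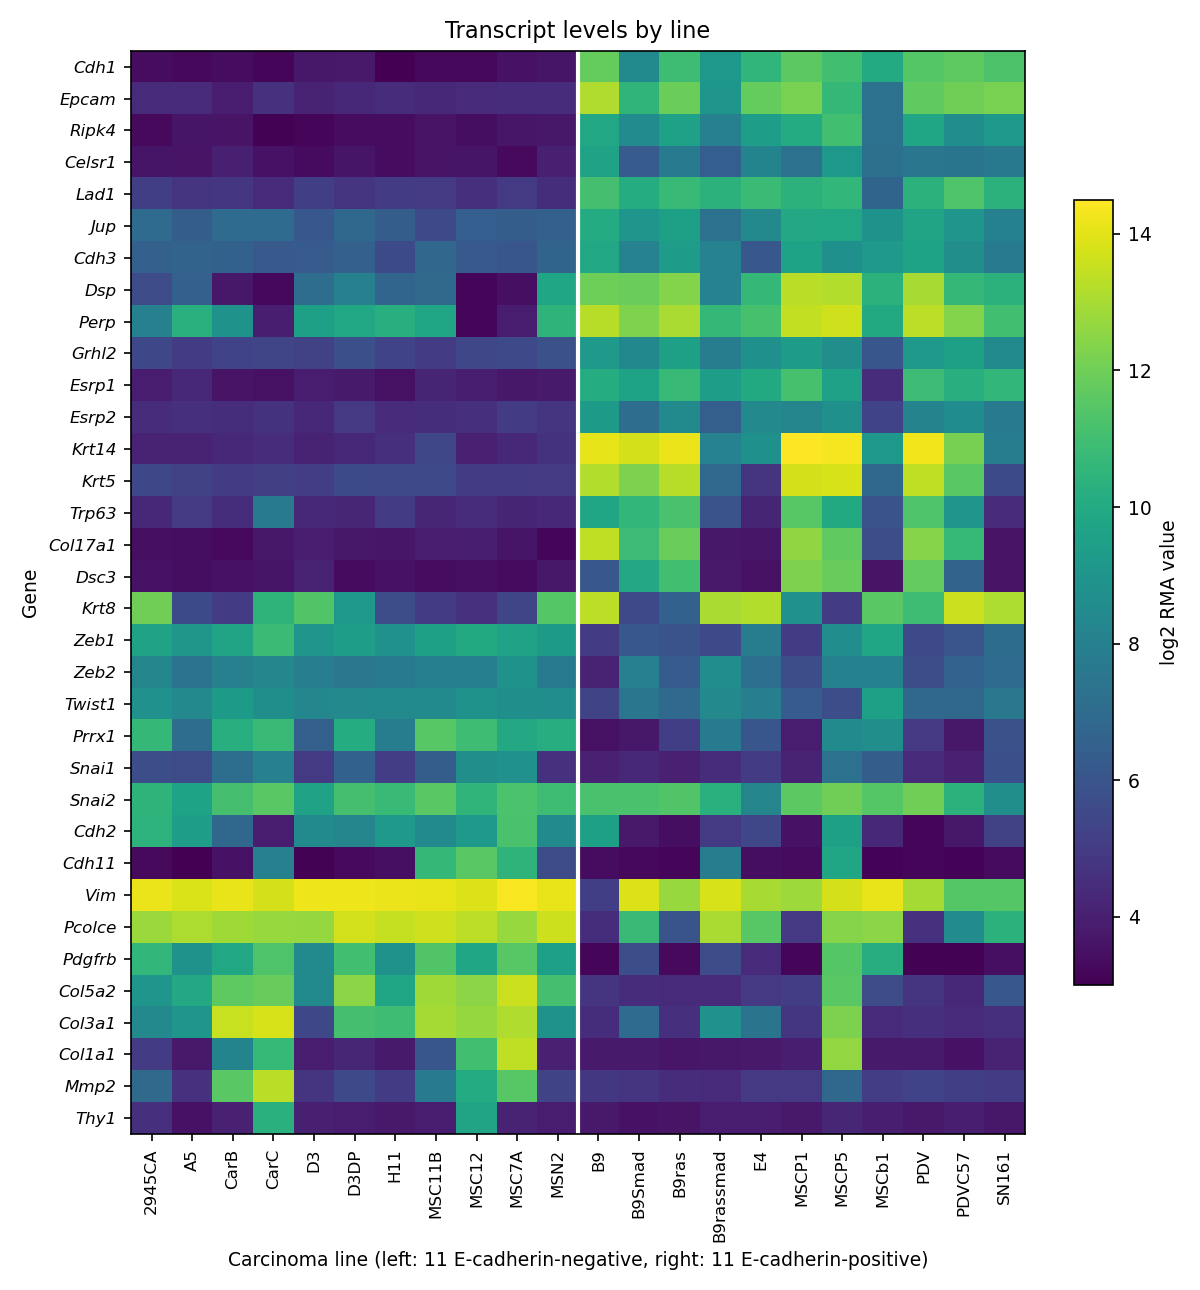
Heat map of log2 RMA values of 34 genes in the 11 E-cadherin-negative lines (left) and 11 E-cadherin-positive lines (right), with dark colours for low and yellow for high values. Cdh1 is shown as the gene that defined the groups; MSCb1 is dark for Esrp1 and bright for Zeb1, MSCP5 is bright for collagens, and E4, SN161, B9rassmad and MSCb1 are low for Krt5, Trp63, Col17a1 and Dsc3.

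Of 26 TGF-beta pathway genes, 2 rose and 3 fell, with a median of 0.19; these shares are near the 11.5% and 8.76% over all tested genes, so the genes are given singly. The signalling receptors Tgfbr1 (-1.20, SE 0.23, limma adjusted p = 0.00122) and Tgfbr2 (-1.17, SE 0.21, limma adjusted p = 0.000828) both fell. Their other tested probe sets had the same sign but were not called over all probe sets. These were at -0.66 (limma adjusted p = 0.205) and -0.84 (0.0804) for Tgfbr1 and at -0.73 (0.0612) for Tgfbr2. The co-receptor gene Tgfbr3 rose by 2.32, and the ligand gene Tgfb2 rose by 1.93. Tgfb2 was at 9.73 in MSCP5 and 6.65 in MSCb1 and at 5.12 or less in the other positive lines, against 5.25 or more in every negative line. Fst, the gene of the activin antagonist follistatin, fell by 3.27 on the log2 scale. Tgfb2 was called in 13 of the 22 fits with 1 line left out (limma adjusted p up to 0.0596, without PDVC57).

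Among EGF family ligands and receptors, 5 of 9 tested fell, with a median of -1.13. The ligand gene Tgfa was between 3.77 and 7.30 in negative lines and between 6.28 and 9.61 in positive lines (log2 fold change -3.09, SE 0.39, limma adjusted p = 2.14e-05), and the ligand genes Nrg1 (-1.76) and Hbegf (-1.38) fell as well. Hbegf was called in 12 of the 22 fits with 1 line left out (limma adjusted p up to 0.0648, without PDVC57). The receptor gene Erbb3 was between 4.42 and 5.63 in negative lines and between 5.71 and 9.98 in positive lines, without overlap (log2 fold change -3.33, SE 0.40, limma adjusted p = 1.19e-05). Its partner gene Erbb2 fell by 1.13 on the log2 scale. Of 15 other receptor kinases, 6 fell and 1 rose. The pair of collagen receptors went opposite ways: Ddr2 rose by 2.02 (SE 0.31, limma adjusted p = 0.000181) and Ddr1 fell by 1.47 on the log2 scale (SE 0.24, limma adjusted p = 0.000317). Ddr2 was at 7.55 or more in every negative line and between 5.27 and 7.82 in positive lines.

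In the WNT pathway 9 of 25 genes fell and 3 rose, with a median of -0.03, against 8.76% lower and 11.5% higher over all tested genes; the share of rises is near that background. The ligand genes Wnt7a (-3.49, SE 0.48, limma adjusted p = 5.87e-05), Wnt4 (-2.35) and Wnt7b (-2.01) and the receptor gene Fzd6 (-1.79) fell, and the nuclear effector gene Lef1 rose by 0.54. Lef1 was dim on both sides, near the array medians. It was between 4.80 and 5.70 in negative lines and between 4.05 and 5.20 in positive lines, so the groups overlapped. Wnt7a was between 4.28 and 6.71 in negative lines, and in positive lines it was at 5.06 in MSCb1 and 7.43 or more in the others. Wnt4 was again low in the positive lines E4 (5.80), SN161 (5.83) and B9rassmad (6.42). None of 24 cell cycle genes was called, with differences between -1.31 and 0.71 and a median of -0.04; 2 of them, both higher, had an unadjusted p under 0.05 in limma, and limma with a trended robust prior called 0. Among 11 reference genes Tfrc, the transferrin receptor gene, was called, at -1.73 (limma adjusted p = 0.0137), and Actb was between 14.21 and 14.60 in negative and between 14.41 and 14.56 in positive lines.

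A pair of summary values per line placed the lines on an epithelial and a mesenchymal scale. The epithelial level, the mean of 76 tested epithelial genes without Cdh1, was 5.99 ± 0.20 in negative lines and 8.27 ± 0.73 in positive lines (SD, n = 11 each). Its ranges of 5.68 to 6.28 in negative lines and 7.01 to 9.46 in positive lines did not overlap. The mesenchymal level, the mean of 51 mesenchymal and matrix genes, was 9.46 ± 0.95 in negative lines and 8.19 ± 0.95 in positive lines (SD, n = 11 each), and here the groups overlapped widely. Negative lines ran between 8.13 in A5 and 10.71 in MSC7A, with D3 (8.18) and H11 (8.35) also low. Positive lines ran between 7.09 in B9 and 10.47 in MSCP5, with MSCb1 at 9.47 and the remaining lines at 8.23 or less. The keratinocyte and papilloma lines had epithelial levels of 8.44 to 9.20 and mesenchymal levels of 7.32 to 7.79. No test was made on these means, since their genes were listed with results of these data known.

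**Figure D5:**
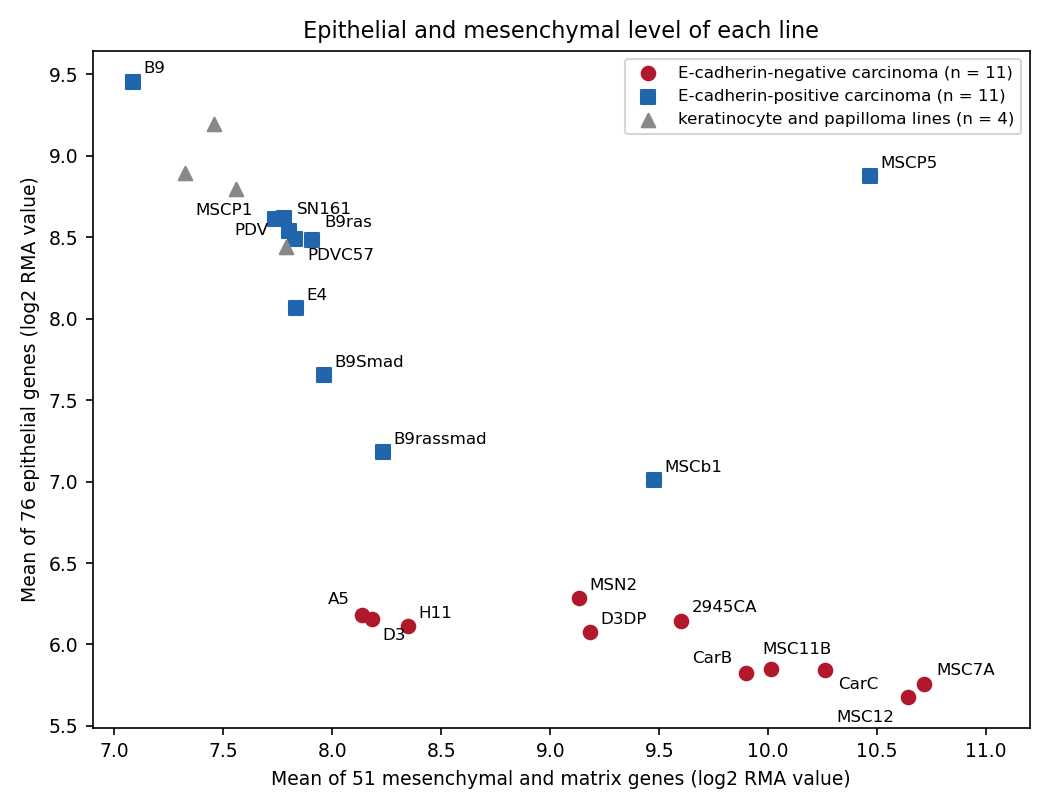
Epithelial level (mean of 76 genes, y axis) against mesenchymal level (mean of 51 genes, x axis) of each line, both as log2 RMA values. All 11 negative lines (red circles) lie at or below 6.28 on the epithelial axis and spread between 8.13 and 10.71 on the mesenchymal axis; MSCP5 and MSCb1 are the positive lines (blue squares) farthest to the right, and grey triangles are the keratinocyte and papilloma lines.

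The positive lines differed from each other in which part of the pattern they had. MSCb1 kept Cdh1 at 10.02 but had Esrp1 at 4.45, Mpzl2 at 4.29 and Lad1 at 6.70, and it had Zeb1 at 9.81, Vcam1 at 10.05 and Ogn at 10.74. Of the genes called higher in negative lines, 52.6% were above the midpoint of the group means in MSCb1, and of those called lower 60.2% were below it. In the other positive lines these shares were 39.2% or less and 47.4% or less. In negative lines they were 69.4% or more and 78.0% or more. The genes were called in these same lines and the midpoints come from their means, so this order of the groups was largely built in. The shares only describe single lines. MSCP5 had both sets of genes: its epithelial level was 8.87, below B9 alone among the positive lines, and Col1a1 (12.65), Col3a1 (12.25), Col5a2 (11.55) and Pdgfrb (11.48) were at the levels of negative lines. MSCP1, of the same name family and cross, had an epithelial level of 8.61 without the collagen and Pdgfrb levels, with Col1a1 at 3.96, Col3a1 at 4.83 and Pdgfrb at 3.21. Within the B9 family the Cdh1 level was 11.78 in B9, 10.94 in B9ras, 9.13 in B9rassmad and 8.49 in B9Smad, and the epithelial levels were 9.46, 8.49, 7.18 and 7.66.

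The negative lines with and without the spindle label were each set against the same positive lines, so these comparisons are not independent, and the difference between them was not tested. The 7 labelled lines gave 1428 calls (11.4%) and the 4 others 648 calls (5.18%). The log2 fold change of Epcam was -6.82 in labelled and -6.74 in unlabelled lines, that of Ripk4 was -5.79 in labelled and -5.71 in unlabelled lines, and that of Esrp1 was -5.93 in labelled and -5.76 in unlabelled lines. For matrix genes the medians were 0.81 in labelled and 3.50 in unlabelled lines, with 6 of 28 called higher in labelled lines (5.93% of all tested genes were) and 9 of 28 in unlabelled lines (2.73%). Larger gaps were seen for Cdh11 (0.04 in labelled, 4.75 in unlabelled lines), Col1a1 (0.92 in labelled, 4.27 in unlabelled), Khdrbs3 (4.21 in labelled, 1.51 in unlabelled), Igfbp3 (-6.81 in labelled, -3.61 in unlabelled) and Perp (-3.16 in labelled, -5.99 in unlabelled). Not all unlabelled lines shared these levels, so the gaps rest on some of them. Cdh11 was at 3.29 in 2945CA, and Col1a1 was at 5.06 there and at 6.06 in MSC11B. Perp was at 3.87 or less in MSC12 and MSC7A but at 9.77 in MSC11B. Igfbp3 was at 11.52 in 2945CA and 4.89 in MSC7A, and Khdrbs3 at 3.44 in 2945CA and 8.25 in MSC7A. The labelled line CarC had Cdh11 at 7.99, Col1a1 at 10.72 and Perp at 3.96. The labelled lines were not alike: the mean of the 28 matrix genes ran from 7.30 in D3 to 10.35 in CarC. This mean was 10.06 in the labelled line CarB, and in unlabelled lines between 9.29 in 2945CA and 11.02 in MSC12. Of the 4 unlabelled lines 3 are Spretus-cross lines, so label and cross cannot be told apart among them.

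Negative and positive lines were also compared separately among lines with and without a stated Spretus cross. Among lines with no cross stated (8 negative, 7 positive) limma called 2431 genes (19.4%). Among the Spretus-cross lines alone (3 negative, 4 positive) it called 14 genes (0.112%), 7 higher (0.0559%) and 7 lower (0.0559%). An interaction of cross with E-cadherin state was called for 1 gene (0.00799%), Sfrp2, which passed the filter on low values only through the 3 negative cross lines. Urah (-4.11, limma adjusted p = 0.0309) and Celsr1 (-4.33, limma adjusted p = 0.0387) were called there. Epcam, at -6.19 (limma adjusted p = 0.164), Krt14, at -6.85 (0.276), and Ripk4, at -5.81 (0.0872), were not called in these 7 lines, and their values among lines with no cross stated were -7.13, -7.84 and -5.71. Whether Spretus sequence differences weaken probe binding was not tested.

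Markers of other cell types were read in the same lines. All 7 measured keratinocyte markers, each of them also in a list above, fell, with a median of -4.39. Their mean per line was between 4.62 and 6.05 in negative lines, near the array medians, and between 7.14 and 12.80 in positive lines. Of 12 measured fibroblast markers 8 were tested and 4 of these rose, Col3a1, Prrx1, Col1a2 and Pdgfra, with a median of 2.53. All 8 also stand in the matrix, mesenchymal or EMT lists. Lum, Fap and Tcf21, other fibroblast markers, were below the array median on all 22 arrays, and Thy1 was at 10.28 in CarC and 9.73 in MSC12 and at 4.55 or less in the other 9 negative lines. The mean of the 12 fibroblast markers per line was between 5.13 and 9.02 in negative lines and between 4.56 and 7.05 in positive lines. Its part in the matrix results was not tested. Leukocyte and endothelial markers gave no call among 5 and 3 tested by limma, with 0 and 1 at an unadjusted p under 0.05 and none under the trended robust prior. Of the 10 measured leukocyte markers, 5 were below the array median on all 22 arrays (Ptprc, Adgre1, Itgam, Tyrobp and Fcer1g), and others were not. Cd14 was between 5.38 and 8.90 in negative lines and reached 11.34 in the positive line MSCb1, Cd68 reached 7.59 in 2945CA among negative lines and was highest in SN161 among positive ones, and Lyz2 reached 8.09 in MSC12. Of the 8 measured endothelial markers, Tie1, Emcn and Esam were below the array median on all 22 arrays. Cdh5 was at 5.12 in 2945CA, within the range of the array medians (5.04 to 5.15), and at 4.75 or less in the other lines. Of the melanocyte markers, Mitf rose by 1.68 (limma adjusted p = 0.00298), while Tyr, Tyrp1, Dct and Mlana were below the array median on all 22 arrays. Pmel (-0.06) and Sox10 (-0.07), other melanocyte markers, were not called. None of 3 tested muscle and adipocyte markers was called by limma. Among negative lines Pparg reached 8.96 and Fabp4 7.93, both in MSN2. Among positive lines Pparg reached 6.81 in MSCb1 and Fabp4 7.75 in SN161.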

How the data were processed

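Mouse skin cell lines were measured on Affymetrix M430 2.0 arrays, 1 array per line. The deposited log2 values come from RMA, per the submitters' processing notes, which as used here give no settings. Of 45037 probe sets in the deposited table, 34945 carry 1 gene symbol, 932 several and 9160 none here, and 34741 matched a current gene ID (RefSeq, GRCm38.p6). Each of 18193 genes was represented by the brightest of its single-symbol probe sets, judged on the mean of all arrays, and genes above the array median on at least 2 of the 22 carcinoma arrays were kept (12521, or 12520 without Cdh1). Groups were compared with limma 3.58.1 in R 4.3.3 (lmFit, eBayes, 2 groups, no covariate) with Benjamini-Hochberg adjustment at 0.05; p-values are two-sided. All 22 carcinoma lines entered the fit. The fit was tested on simulated data. The number of arrays limits the precision.

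The group members and the gene lists were chosen with earlier results of these data known. Genes named are the 10 largest rises and falls among calls, the 6 largest gaps in each direction, all measured adherens junction, EMT factor, epithelial factor and splicing genes, up to 5 called members per direction of every other list with the largest changes, and the most abundant uncalled member as an example. Vim, Sfrp2 and genes given for their level in single lines fall outside this rule. The alternatives were name families as a random block (consensus correlation 0.149) or averaged, no filter, other probe set rules, a cross covariate, subsets of lines, a trended robust prior, and each line left out in turn. Replicate numbers follow the order of deposition and pair no lines.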

Additional observations from a re-analysis of the deposited data

Results flagged for a closer look

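Sfrp2, which encodes a secreted WNT inhibitor, was the 1 gene of 12520 (0.00799%) whose difference between negative and positive lines itself differed between Spretus-cross lines and lines with no cross stated. The interaction was 1.88 (SE 0.28, limma adjusted p = 0.0159). Sfrp2 was at 6.41 in MSC11B, 5.17 in MSC12 and 5.16 in MSC7A, the 3 negative cross lines, and between 3.29 and 3.60 in the other 8 negative lines. In positive lines it was between 3.41 and 4.16 in the 4 cross lines and between 3.22 and 3.55 in the other 7. The log2 fold change was 1.92 within cross lines and 0.04 within the rest, and all 3 negative cross lines stood above all other lines. Only these 3 lines were above their array median for Sfrp2, so it passed the filter on low values through the lines where it is high, and the other values lie at the dim end. An unadjusted interaction p under 0.05 was reached by 875 genes. The adjusted p was 0.0279 with name families as a block and 0.0153 with no filter on low values. Whether the 3 lines share more than their cross and name prefix was not tested.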

How the results depend on the processing

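No paired analysis was possible because replicate numbers follow the order of deposition. Averaging name families gave 858 calls (370 higher, 488 lower), testing all probe sets one by one gave 5484 (2738 higher, 2746 lower), and the Spretus-cross lines alone gave 14 (7 higher, 7 lower). Against the positive lines, spindle-labelled negative lines gave 1428 calls (742 higher, 686 lower) and the other negative lines 648 (342 higher, 306 lower). These fits differ in how many lines or probe sets enter them. Between 1906 and 3400 genes were called with 1 line left out, and between 52 and 139 genes had groups that did not overlap. Of 109 genes named and called above, 100 were called in all 22 of those fits, 100 with name families as a random block, 75 with families averaged, 97 among lines with no cross stated and 2 among Spretus-cross lines. None of the 109 changed sign in these block, averaged and cross fits. Those fits reuse the lines in which the genes were called, so the agreement in sign was largely built in. Calls lost with the block were Foxq1, Grhl1, Hbegf, Krtdap, Mmp11, Mmp2, Snai1, Tgfb2 and Vcl (limma adjusted p between 0.0506 and 0.0728). Of the 109, 65 had other tested probe sets, 111 in all: 86 were called in the same direction, 25 were not called and 0 were called in the opposite one. Signal near the dim end limits fold changes of genes that were low in a group. Genes below the array median in all negative lines, such as Epcam, Esrp1, Krt17 and Mpzl2, passed the filter on low values through the positive lines.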
